A study of Mus musculus with 8 samples.

Results

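The comparison asks whether loss of Id2 changed RNA levels in cells of visceral adipose tissue by more, by less or in another direction than in cells of the spleen. For each gene the genotype difference in spleen was subtracted from the genotype difference in adipose tissue, and the result is called the interaction. All 8 of the 8 deposited libraries enter it, and 13376 of the 45232 rows of the table could be tested. CD4+ CD25+ T cells came from C57BL/6 mice of genotype WT or Id2 CKO, the latter a conditional deletion written KO below. Regulatory T cells (Tregs) make up much of such a sort. The groups were WT adipose, KO adipose, WT spleen and KO spleen, with 2 libraries each, numbered 2 and 3 and called experiments in the table. The Cre driver of the deletion and the age of the mice are not stated in the sources used here. Separate animals behind the 2 libraries of a group are not named in the labels, and the p-values therefore reflect how far these libraries differ, in part perhaps for technical reasons.

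Id2 belongs to a family of helix-loop-helix proteins that lack a DNA-binding region. They pair with E proteins, which bind the E-box sequence in DNA, and keep them from it. In T cells this balance sets differentiation, survival and division. Tregs of visceral adipose tissue are long-lived resident cells that depend on the nuclear receptor PPARγ and the IL-33 receptor. An interaction shows where the genotype difference in RNA level is not the same in the tissues, which neither genotype difference shows alone. It does not show whether the T cells or other cells in the libraries account for it.

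Levels are TPM, a share of transcripts, and differences are given as log2(TPM + 1), where changes of low genes come out too small. The read depth of each library is unknown, because TPM does not retain it. Zeros are written as listed at 0. Between 13184 and 20684 genes per library were above 0. The T cell core list of 12 genes (CD3 chains, Cd4, Lck and others) summed to 7298 to 8983 TPM in WT adipose and 3628 to 9494 TPM in KO adipose. In spleen it summed to 7558 to 9501 TPM in WT and 7885 to 9845 TPM in KO. The Treg-defining factor Foxp3 had 7.4 TPM in KO adipose 2, 8.27 TPM in KO spleen 2, and 93.5 to 266 TPM in the other 6 libraries. KO adipose 3 stood apart through macrophage genes, with a list total of 15138 TPM against 46.8 TPM in KO adipose 2. Without both KO libraries of experiment 2, limma called 21 genes (19 higher and 2 lower); each KO group then has 1 library, assumed to vary like the WT groups, which alone give the spread. Effects of single libraries are given beside the results they touch.

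4 genes were called for the interaction, all 4 with a larger genotype difference in adipose tissue (limma with Benjamini-Hochberg adjustment over all tested genes, threshold 0.05). They were Igfbp6, Serping1, Nkain4 and Upk1b, and they make up 0.0299% of the tested genes. All 4 were under 1 TPM in the 6 libraries outside KO adipose, so they entered the test only through the group where they were high, and a difference was built into their selection; with no filter on low values limma called 0 genes (661 at an unadjusted p under 0.05). They are therefore given as a description. In the lower direction 0 genes passed in limma, and 138 had an unadjusted p under 0.05 (1.03%). In the higher direction 271 genes had an unadjusted p under 0.05 (2.03%), which makes 409 in either direction (3.06%). With the experiment number as a block no gene passed in limma (661 had an unadjusted p under 0.05), and the smallest adjusted p was 0.0506. The 4 calls were thus lost with the block.

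Genotype differences were spread more widely in adipose tissue than in spleen. The KO adipose libraries also differed from each other, with 13184 and 20684 genes above 0, and the part of this in the wider spread was not tested. Across tested genes the SD of the genotype difference was 0.95 in adipose tissue and 0.44 in spleen, and 9210 genes (68.9%) had the larger absolute difference in adipose tissue. The median interaction was -0.17, from a median genotype difference of -0.27 in adipose tissue and -0.12 in spleen. 60.4% of genes were below 0, and quantile normalization moved the median to -0.09. Members of lists are read against these values below.

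**Figure D1:**
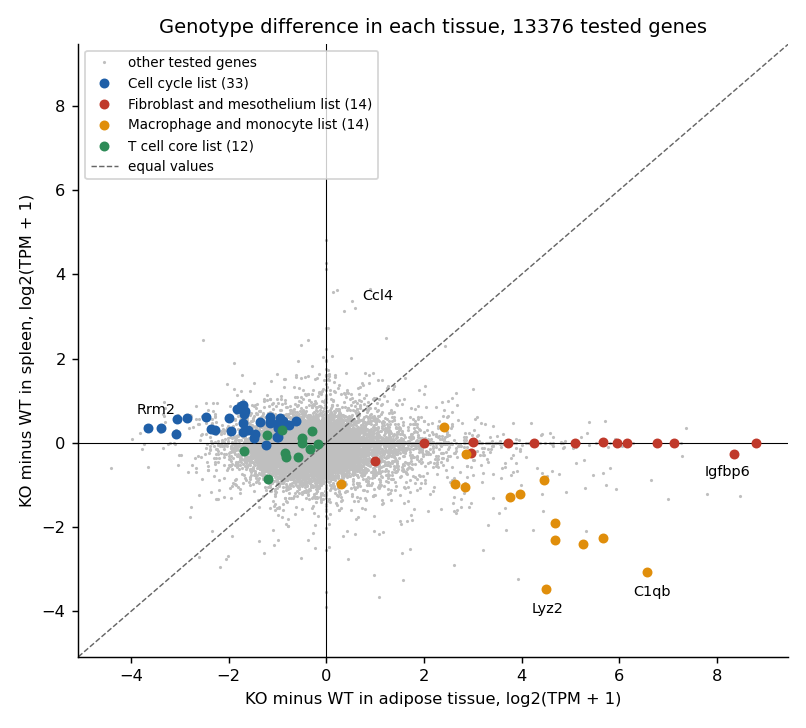
KO minus WT on the log2(TPM + 1) scale in adipose tissue (horizontal axis) and in spleen (vertical axis) for each tested gene, with 4 gene lists in colour; the interaction of a gene is its horizontal distance from the dashed line of equal values. The 33 cell cycle genes lie left of 0 in adipose tissue, and 32 of them lie above 0 in spleen; the fibroblast and mesothelium genes lie along the horizontal axis, and macrophage genes lie to the right and mostly below 0 in spleen.

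Each experiment holds 1 library of every group and gives its own interaction value, with no test. The value had the same sign in both experiments for 7049 of the 13376 genes (52.7%). Across genes Pearson's r between the experiments was 0.22 (n = 13376 genes, which are not independent replicates, and all genes of an experiment share its 4 libraries). In 614 genes (4.59%) the interaction was at least 1 in both experiments, in 536 (4.01%) it was at or below -1 in both, and in 673 it was at least 1 in size with opposite signs. Over all genes, without a limit on size, opposite signs were thus almost as frequent as equal ones.

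**Figure D2:**
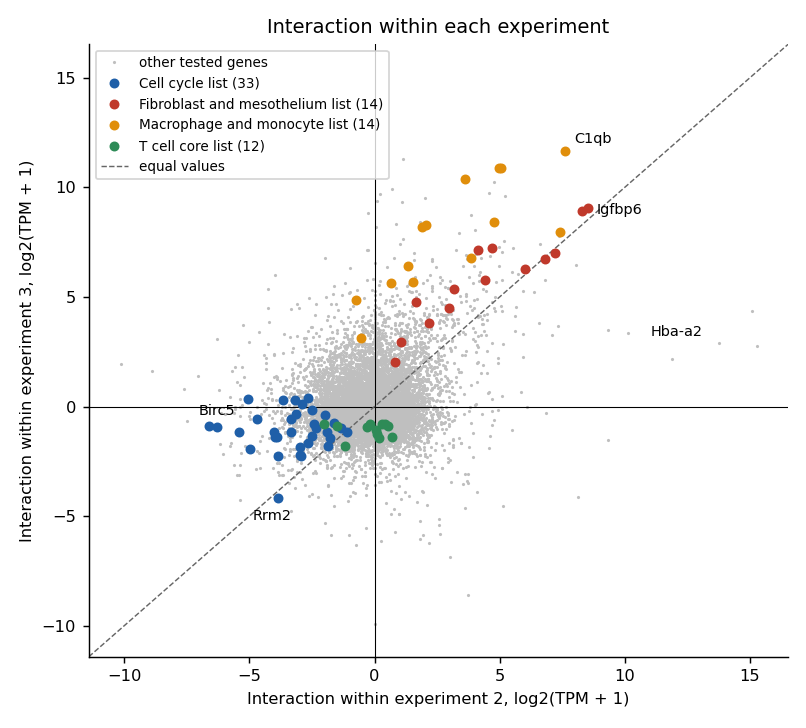
Interaction on the log2(TPM + 1) scale computed within experiment 2 (horizontal axis) and within experiment 3 (vertical axis) for each tested gene, with the same 4 lists in colour and a dashed line of equal values. Fibroblast and mesothelium genes lie on or somewhat above the dashed line, all 14 macrophage genes lie above it, and cell cycle genes extend further from 0 in experiment 2.

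Id2, the targeted gene, was lower in KO in both tissues by a similar amount on the log2 scale. It was at 2249 and 3679 TPM in WT adipose and 1499 and 1298 TPM in KO adipose, and at 274 and 346 TPM in WT spleen and 72.1 and 265 TPM in KO spleen. In each tissue the KO libraries were both below the WT libraries. The genotype difference was -1.04 in adipose tissue and -1.15 in spleen, so the interaction was 0.11 (SE 0.81, limma adjusted p = 1). It was 1.33 in experiment 2 and -1.12 in experiment 3, with opposite signs. The table gives 1 value per gene, and the deleted part of Id2 is not stated in the sources used here, so this level does not measure how complete the deletion was.

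Id3, the relative of Id2 that also restrains E proteins, had the largest interaction of the 6 tested Id and E protein genes. It was at 25.1 and 22.3 TPM in WT adipose and 116 and 323 TPM in KO adipose, where the groups did not overlap. Spleen levels were 322 and 276 TPM in WT and 478 and 245 TPM in KO, where they did. The interaction was 2.78 (SE 0.73, limma adjusted p = 0.678), with 1.59 in experiment 2 and 3.97 in experiment 3. It passed without KO adipose 2 (3.52, limma adjusted p = 0.0477), though not when the genes tested were kept as with 8 libraries (0.062). It passed as well without both KO libraries of experiment 2 (4.0, limma adjusted p = 0.0394). These fits rest on KO adipose 3 as the lone KO adipose library, the one with the highest macrophage list total, and the part of other cells in Id3 was not tested. Id1 was at 0.292 and 30.2 TPM in WT adipose and 0 and 313 TPM in KO adipose, high in both libraries of experiment 3, and at most 1.02 TPM in spleen. The E protein genes Tcf3 (-0.93, SE 0.98), Tcf12 (-0.59, SE 0.78) and Tcf4 (1.79, SE 1.52) did not pass. Tcf3 and Tcf12 were lower in KO adipose 2 than in the other 3 adipose libraries, at 5.32 and 3.36 TPM.

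The 4 called genes were all near or at 0 outside KO adipose. Igfbp6, which encodes a binding protein of insulin-like growth factors, was at 269 and 746 TPM in KO adipose, 0.038 and 0.839 TPM in WT adipose and 0.199 and 0.204 TPM in WT spleen, and was listed at 0 in both KO spleen libraries. Its interaction was 8.61 (SE 0.91, limma adjusted p = 0.0367). Serping1, the inhibitor of complement C1, was at 111 and 213 TPM in KO adipose, at 0.476 and 0.0325 TPM in WT spleen, and listed at 0 in the other 4 libraries (7.58, SE 0.80). Both KO adipose libraries thus stood far above all others for these genes. Nkain4, a membrane protein gene, was at 113 and 107 TPM, and Upk1b, a uroplakin of epithelium and mesothelium, at 113 and 106 TPM in KO adipose. Both were listed at 0 in the other 6 libraries, so no fold is given. Their interactions of 6.80 and 6.78 (SE 0.71 each) equal the difference in adipose tissue alone and depend on the pseudocount: with 0.1 they were 10.11 and 10.09, and with 5 they were 4.53 and 4.51.

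No call of these 4 genes held when a library outside KO adipose was left out. The limma adjusted p of each was 0.148 or 0.163 when WT adipose 2 or 3 was left out, 0.413 or 0.333 for WT spleen 2 or 3, and 0.355 or 0.283 for KO spleen 2 or 3. Without either KO adipose library the filter on low values no longer admits them. When the genes tested were kept as with 8 libraries, the limma adjusted p of all 4 was 0.0119 without KO adipose 2 and 0.0451 without KO adipose 3. These fits are no support for the calls, because the left-out library still admits the genes and the lone KO adipose library is assumed to vary like the other 3 groups. With the replicate block the adjusted p was 0.0506 for Igfbp6, Nkain4 and Upk1b and 0.0611 for Serping1. Their values in the 2 experiments lay close together, at 8.28 and 8.93 for Igfbp6, 7.37 and 7.79 for Serping1, 6.84 and 6.76 for Nkain4, and 6.83 and 6.74 for Upk1b. A small p favours genes whose libraries lie close together, so this closeness is no separate support for the calls.

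**Figure D3:**
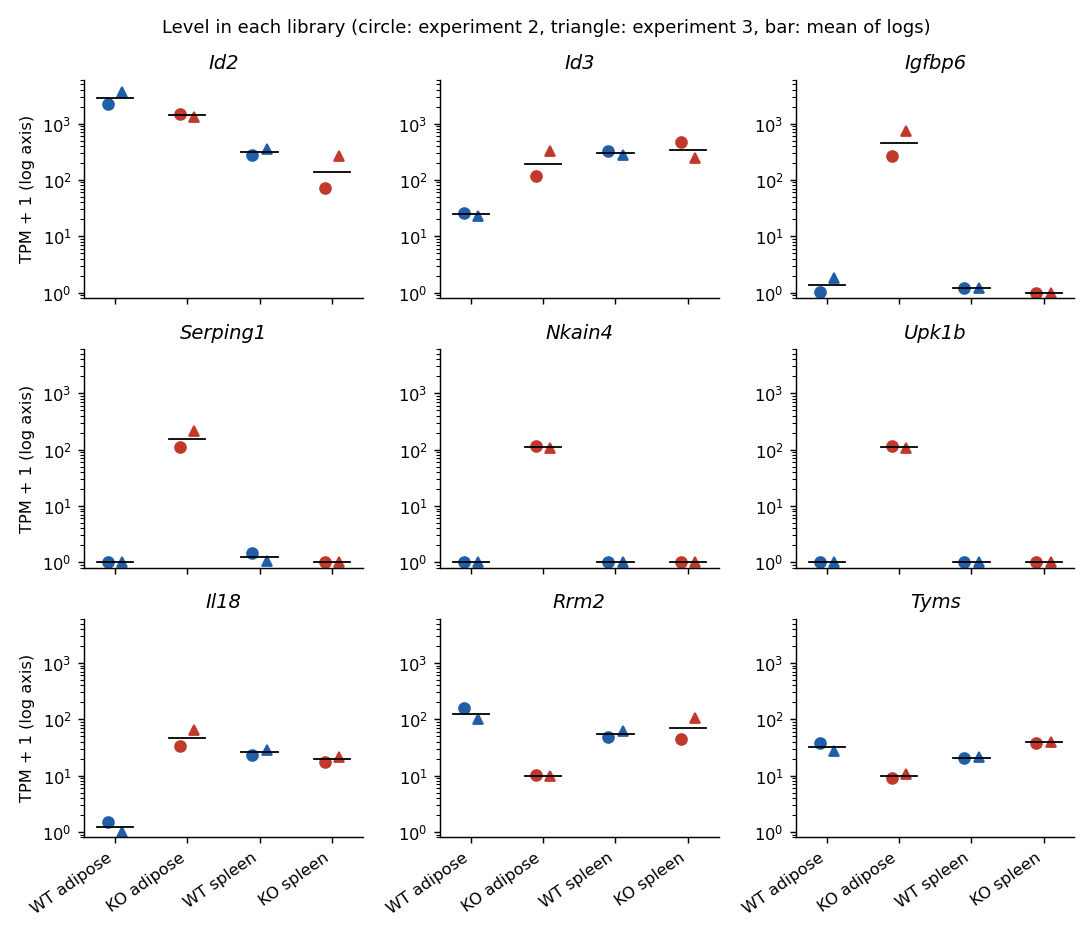
TPM + 1 on a log axis in each library for 9 genes, with circles for experiment 2, triangles for experiment 3 and bars for the mean of the logs; WT is blue and KO red. Igfbp6, Serping1, Nkain4 and Upk1b lie above 100 TPM in KO adipose and below 1 TPM in every other group, while Il18 is low in WT adipose alone and Rrm2 and Tyms are lowest in KO adipose.

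The same pattern was found in the 15 named genes with the smallest p in the higher direction, taken among genes whose group mean reached 5 TPM, whether or not they passed. Of these, 12 were under 1 TPM in all 6 libraries outside KO adipose, and 5 were listed at 0 in all 6. These 12 too entered the test only through KO adipose. In all 15 the spleen difference was within 0.5 of 0. Besides Serping1 they include the complement genes C3, Cfb and C1s1. C3, the central complement component, was at 108 and 310.2 TPM in KO adipose and at most 0.782 TPM elsewhere (7.03, SE 0.91, limma adjusted p = 0.068). Cfb, which encodes factor B of the alternative pathway, was at 46.7 and 74.1 TPM (5.88, SE 0.75), and C1s1, a protease of the classical pathway, at 44.3 and 68.8 TPM (5.81, SE 0.73). The limma adjusted p was 0.0642 for Cfb and C1s1. Efemp1, the matrix glycoprotein fibulin-3, was at 333 and 128 TPM in KO adipose and at most 1.25 TPM elsewhere (7.12, SE 0.95). Rarres2, the chemoattractant chemerin, was at 262 and 401 TPM in KO adipose and 0 and 3.51 TPM in WT adipose (7.26, SE 1.05). The serine protease gene Prss23 (6.28), the membrane glycoprotein gene Gpm6a (6.15), Tmem98 (5.43), the growth arrest gene Gas1 (4.82) and Igfbp5 (4.65), another binding protein of insulin-like growth factors, had limma adjusted p-values from 0.0558 to 0.111. Tested without KO adipose 3 on the genes of the 8-library filter, Gpm6a and Prss23 were called too (limma adjusted p = 0.0451 each), with KO adipose 2 as the lone library of its group.

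Il18 was the exception among these 15, since it was well expressed in spleen. This gene encodes a cytokine of the IL-1 family that promotes type 1 responses. It was at 22.6 and 27.2 TPM in WT spleen and 16.6 and 20.5 TPM in KO spleen. Adipose levels were 0.474 and 0 TPM in WT and 33.3 and 63.9 TPM in KO. WT adipose was therefore the single group near 0. The interaction was 5.69 (SE 0.70, limma adjusted p = 0.0642), with 4.97 in experiment 2 and 6.41 in experiment 3. Limma called it in 5 of 19 alternatives, among them quantile normalization (adjusted p = 0.0388) and the fit without KO adipose 2 (adjusted p = 0.01).

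The fibroblast and mesothelium list (18 genes, all in the table) held 2 of the 4 called genes, Igfbp6 and Upk1b. Its sum was 1276 to 4164 TPM in KO adipose, against 8.12 to 8.77 TPM in WT adipose, 1.09 to 3.66 TPM in WT spleen and 0.205 to 2.1 TPM in KO spleen. Of its members 14 were tested, and 10 of these were at 1 TPM or more in KO adipose alone, so that they could pass the filter only by being high there. Counts over the tested members are for this reason a description: 14 of 14 were positive, with a median of 5.36. Over all 18 members, tested or not, the median was 4.0 and 18 were positive. Dcn, the proteoglycan decorin of connective tissue, was at 404 and 2493 TPM in KO adipose and at most 3.58 TPM elsewhere (8.80, SE 1.34, limma adjusted p = 0.118). The mesothelial genes Msln (24.7 and 149.6 TPM) and Upk3b (20.5 and 52.9 TPM) were listed at 0 in the other 6 libraries. The collagen genes Col3a1 (7.14 and 21.3 TPM) and Col1a2 (3.86 and 12.6 TPM) were far lower than Dcn in the same libraries. Among all tested genes, 187 (1.40%) were at 1 TPM or more in KO adipose alone. They account for 126 of the 271 higher genes with an unadjusted p under 0.05.

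**Figure D4:**
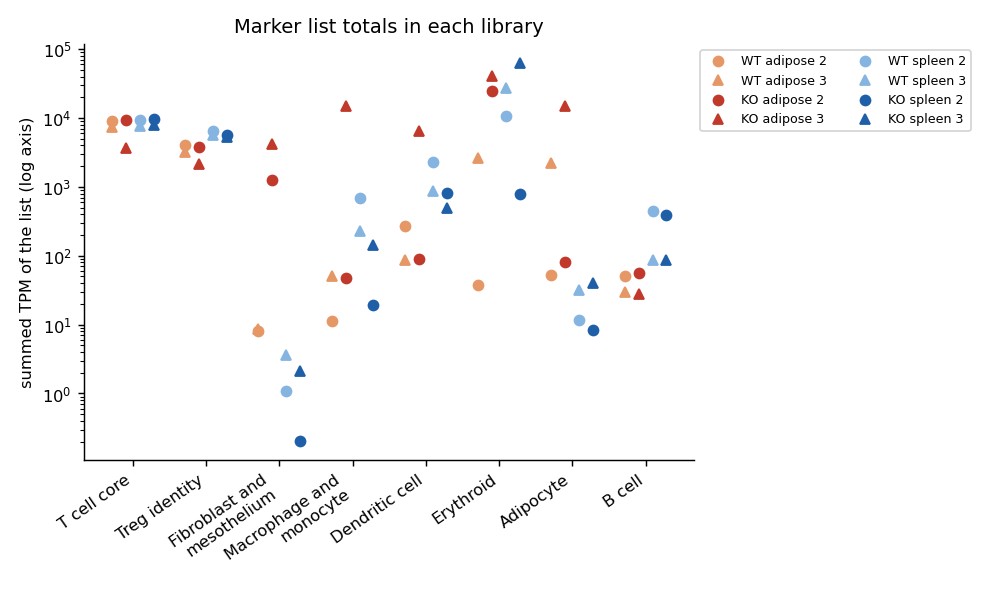
Summed TPM of 8 marker lists on a log axis in each library, with circles for experiment 2 and triangles for experiment 3. T cell core totals run from 3628 to 9845 TPM and Treg identity totals from 2161 to 6384 TPM, both lowest in KO adipose 3. Fibroblast and mesothelium totals are high in both KO adipose libraries. Macrophage, dendritic cell and adipocyte totals are highest in KO adipose 3.

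Macrophage genes had large positive interactions of a different make-up, high in KO adipose 3 and low in KO spleen 2. The list (15 of 16 genes in the table) summed to 11.2 to 51.7 TPM in WT adipose, 46.8 to 15138 TPM in KO adipose, 229.8 to 701 TPM in WT spleen and 19.5 to 141 TPM in KO spleen. All 14 tested members were positive, as were 39.6% of all tested genes, with a median of 5.25. In 5 of them KO lay above WT without overlap in adipose tissue and below it in spleen, an order seen in 1.14% of tested genes. The median was 8.88 without KO adipose 2 and 2.29 without KO adipose 3. None passed (limma, 0 calls, 5 at an unadjusted p under 0.05, against 3.06% of tested genes). In experiment 3 the median genotype difference was 7.11 in adipose tissue and -0.46 in spleen. In experiment 2 it was 0 in adipose tissue and -2.03 in spleen, so that the positive interaction came from the adipose side in one experiment and from the spleen side in the other. C1qb, a chain of complement C1q made by macrophages, was at 5.78 and 2781 TPM in KO adipose, 0.699 and 0.214 TPM in WT adipose, 72.3 and 57.3 TPM in WT spleen and 0.497 and 39.8 TPM in KO spleen (9.64, SE 3.50, limma adjusted p = 1). Apoe, which encodes the lipid carrier apolipoprotein E, had 31 and 3828 TPM in KO adipose and 1.62 and 30.5 TPM in WT adipose (7.68, SE 2.89). Its spleen levels were 84.2 and 71.9 TPM in WT and 5.16 and 34.8 TPM in KO. KO adipose 2 was thus close to WT adipose 3. In KO adipose 2 the macrophage genes Mrc1, Fcgr1, C1qc, Ms4a7, Cd163, Adgre1 and Lyz1 were listed at 0. Without KO adipose 2, limma called 79 genes (77 higher and 2 lower), of which 12 were members of this list. These calls rest on KO adipose 3 alone, with the spread taken from the other 3 groups.

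Erythroid genes also had positive interactions, and their level varied among libraries of every group. The list (5 of 9 genes in the table) summed to 37 to 2668 TPM in WT adipose, 24599 to 41287 TPM in KO adipose, 10739 to 26957 TPM in WT spleen and 785 to 63217 TPM in KO spleen. The globin gene Hba-a2, which has a near-identical copy that may share its reads, was at 17740.5 and 32953 TPM in KO adipose and 17 and 1957 TPM in WT adipose (8.33, SE 3.33, limma adjusted p = 1). Spleen levels were 8545 and 21744 TPM in WT and 598 and 49816 TPM in KO, so its spleen difference was negative in experiment 2 and positive in experiment 3. Adipocyte genes (11, all in the table) summed to 52.1 to 2235 TPM in WT adipose, 80.9 to 14839.9 TPM in KO adipose, and at most 40.1 TPM in spleen. In each adipose group the higher sum was that of experiment 3. Fabp4, a member of the adipocyte list, is also in the list of endothelial genes given further below. In KO adipose 3 the adipocyte genes Cfd, Car3, Retn and Adipoq were at 507, 353, 113 and 112 TPM. They made up a small part of the sum of 14839.9 TPM there, so that sum does not stand for the list as a whole. Dendritic cell genes (12) summed to 90.2 to 6504 TPM in KO adipose and 88.1 to 274 TPM in WT adipose. In spleen they summed to 883 to 2303 TPM in WT and 494 to 811 TPM in KO. Much of the sum of 6504 TPM in KO adipose 3 came from H2-Ab1, H2-Eb1 and H2-Aa, at 1564, 829 and 768 TPM, while Cd209a was at 168 TPM. Which cells carried these genes was not tested. The part of other cells in the interaction of other genes was not tested. The T cell core total was low in KO adipose 3 (3628 TPM) but not in KO adipose 2 (9494 TPM). For KO adipose 3, fewer T cells and less RNA per T cell cannot be told apart.

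Cell cycle genes had lower TPM in KO than WT in adipose tissue and higher TPM in spleen, in the median of the list. All 33 listed genes were tested, and all 33 had a negative interaction (median -1.95, against -0.17 over all tested genes). In adipose tissue 33 of 33 had a negative genotype difference (median -1.66), and in spleen 32 of 33 a positive one (median 0.46). In 7 of them both KO libraries lay below both WT libraries in adipose tissue and above both in spleen, a pattern found in 1.19% of tested genes. The interaction was at or below -1 in both experiments for 17 of the 33, against 4.01% of tested genes. None of the 33 passed in limma over all genes, and 8 had an unadjusted p under 0.05, against 3.06% of tested genes. The median was also negative with quantile normalization (-2.02) and without both KO libraries of experiment 2 (-1.80). It ran from -2.73 to -1.29 with 1 library left out, the latter without WT adipose 2.

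The experiments reached this shared sign by different routes. In experiment 2 the median genotype difference of the 33 genes was -3.18 in adipose tissue, where 33 were negative, and 0.10 in spleen, where 19 were positive. In experiment 3 it was -0.38 in adipose tissue, where 21 were negative, and 0.81 in spleen, where 33 were positive. The list interaction was -2.96 in experiment 2 and -1.16 in experiment 3. It therefore came mostly from the adipose side in the former and mostly from the spleen side in the latter. Of the 33 genes, 6 were listed at 0 in KO adipose 2, which was the case in no other library. The experiment 2 values of these 6 depend on the pseudocount. The 33 genes summed to 2903 and 1615 TPM in WT adipose and 733 and 1127 TPM in KO adipose. In spleen the sums were 1462 and 1476 TPM in WT, and 1828 and 2422 TPM in KO, so that the groups were apart in both tissues and in opposite order. KO adipose 2 and KO adipose 3 are also the libraries with high fibroblast and mesothelium totals, and KO adipose 2 the library with the fewest genes above 0. The part of either in the cell cycle values was not tested.

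**Figure D5:**
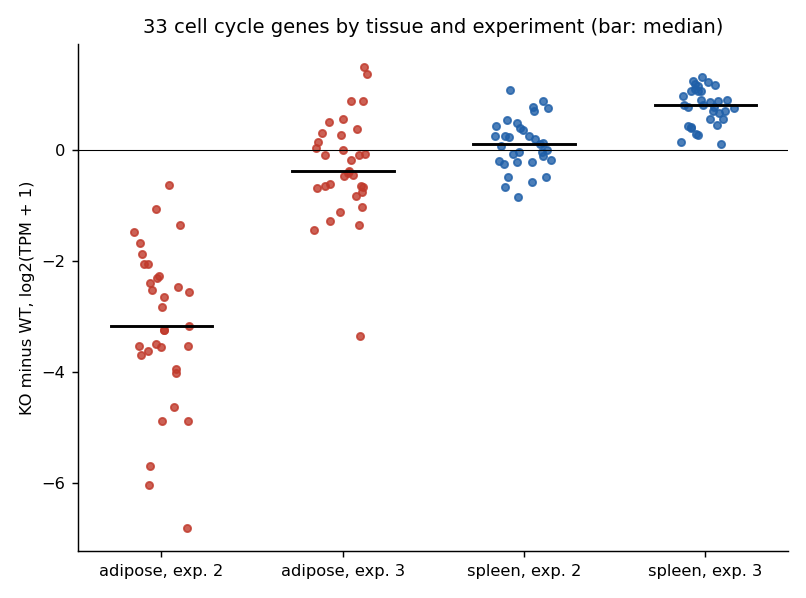
KO minus WT on the log2(TPM + 1) scale for each of 33 cell cycle genes (points, spread sideways for clarity) in adipose tissue (red) and spleen (blue) of each experiment, with bars at the medians. All points are below 0 in adipose tissue of experiment 2, and all are above 0 in spleen of experiment 3, while the other columns straddle 0.

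Rrm2, the regulated subunit of ribonucleotide reductase, which makes the building blocks of DNA, had the smallest p among all genes in the lower direction. It was at 158 and 98.9 TPM in WT adipose and 9.3 and 8.76 TPM in KO adipose, and at 47.9 and 60.3 TPM in WT spleen and 44.5 and 107 TPM in KO spleen. The adipose groups were far apart and the spleen groups overlapped. The interaction was -4.01 (SE 0.66, limma adjusted p = 0.155), with -3.85 in experiment 2 and -4.17 in experiment 3. Tyms, thymidylate synthase, was at 36.4 and 26.8 TPM in WT adipose and 8.04 and 9.91 TPM in KO adipose, and at 19.5 and 20.1 TPM in WT spleen and 37.2 and 38.5 TPM in KO spleen. Here the groups were separate in both tissues and in opposite order (-2.60, SE 0.53, limma adjusted p = 0.355). Stmn1, a regulator of microtubules, was at 397 and 366 TPM in WT adipose, 31.3 and 149 TPM in KO adipose, 276 and 151 TPM in WT spleen and 328 and 299.6 TPM in KO spleen (-3.07, SE 0.92). Tk1, thymidine kinase, had an interaction of -2.42 (SE 0.74). Birc5, the mitotic protein survivin, showed how far the experiments could differ, with -6.29 in experiment 2, where KO adipose was listed at 0, and -0.95 in experiment 3. Without KO adipose 3, limma called 3 genes as lower, Hist1h2ap, Spc24 and Ckb, chosen here because the count is small. These calls rest on KO adipose 2 alone, with the spread taken from the other 3 groups, and on the genes of the 8-library filter Spc24 and Ckb lost the call. The first is a histone gene with near-identical copies, the second a gene of the kinetochore, and Ckb encodes brain-type creatine kinase.

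The sequence before the start of the 2 cell cycle genes with the smallest p is shown because their interactions had the same sign in both experiments. Windows are the 250 bases before the start in the RefSeq promoter table (GRCm38.p6), in lower case with motif matches in capitals. Rrm2 is at chr12:24708004-24708253, plus strand, and Tyms at chr5:30073626-30073875, minus strand.
Rrm2: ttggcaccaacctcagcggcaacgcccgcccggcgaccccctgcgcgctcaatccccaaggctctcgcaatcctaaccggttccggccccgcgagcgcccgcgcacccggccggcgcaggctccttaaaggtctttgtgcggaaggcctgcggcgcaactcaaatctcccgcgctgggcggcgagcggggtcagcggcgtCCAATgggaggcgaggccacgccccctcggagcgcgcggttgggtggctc
Tyms: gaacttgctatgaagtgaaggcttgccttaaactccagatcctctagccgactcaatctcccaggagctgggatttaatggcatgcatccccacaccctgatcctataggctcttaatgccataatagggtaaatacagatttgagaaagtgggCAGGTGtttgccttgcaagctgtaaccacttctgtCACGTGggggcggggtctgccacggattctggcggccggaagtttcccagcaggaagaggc
The motifs searched on both strands were the CCAAT box (CCAAT), the cell cycle homology region (TTTGAA), an E2F site (TTTCGCGC or TTTGGCGC) and the E-box (CANNTG), which E proteins bind. In the Rrm2 window the capitals mark 1 CCAAT box, and in the Tyms window 2 E-boxes. Of the 33 cell cycle genes 28 matched the table by symbol. A CCAAT box was in 22 of the 28 windows (78.6%), against 36.8% of 9413 tested genes with a window and 34.5% of all 27025 genes in the table. The cell cycle homology region was in 10 (35.7%, against 10.7% of tested genes) and the E2F site in 3 (10.7%, against 1.31%). None of these spellings contains another. An E-box was in 12 (42.9%, against 57.2%). A match says only that these letters are in the window.

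Rrm2 and Tyms are the 2 members of the cell cycle list among the 15 genes with the smallest p in the lower direction, where 0 passed. All 15 had both KO adipose libraries below both WT adipose libraries, and 13 had a spleen difference above 0. Choice by p in the lower direction favours such an order, so these counts are a description. Over all tested genes, 22.2% had a genotype difference below 0 in adipose tissue and above 0 in spleen. The interactions of the 15 ran from -4.30 to -1.89, with limma adjusted p-values from 0.155 to 0.783. Cdca5 (sororin, which holds sister chromatids together) was at 22 and 17.7 TPM in WT adipose, 0 and 3.32 TPM in KO adipose, 6.11 and 8.9 TPM in WT spleen and 13 and 18.7 TPM in KO spleen (-4.30, SE 1.01). Oip5 (-3.80), Cenpp (-3.69) and Ska1 (-3.45) serve centromeres and kinetochores, Asf1b (-2.97) is a histone chaperone, and Rfc4 (-1.89) loads the DNA clamp. Tubg2 (-3.09) is a gamma-tubulin and Mxd3 (-3.47) a transcription factor of the MYC network. Gbp10, an interferon-inducible guanylate-binding protein gene, had 14 and 10.5 TPM in WT adipose and 0.103 and 0.53 TPM in KO adipose. Spleen levels were 13.7 and 12.9 TPM in WT and 9.12 and 15.9 TPM in KO, so KO adipose was the single low group (-3.21, SE 0.74, limma adjusted p = 0.51). Near-identical guanylate-binding protein genes exist, and the counting is not given, so its reads could be shared with them. The adhesion receptor gene Adgrg5 (-3.21) and the hormone gene Stc2 (-3.23) were expressed mainly in WT adipose. Lrr1 (-3.17) and Tmem86b (-2.98) complete the 15.

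By size in both experiments, rather than by p, the leading higher genes were Dcn, Igfbp6, C1qb, Apoe, Serping1 and Efemp1, where the smaller of the 2 values ranged from 7.02 to 8.55. The leading lower genes were Rrm2, Gtse1, Gbp10, Ska1, Cdca5 and Rpl39l, where it ranged from -3.85 to -3.11. Gtse1 acts in the late cell cycle and was at 13.4 and 5.14 TPM in WT adipose, 0 and 0.867 TPM in KO adipose, 2.32 and 2.75 TPM in WT spleen and 1.45 and 11.9 TPM in KO spleen. Rpl39l, a paralog of a ribosomal protein gene, had 3.56 and 10.5 TPM in WT adipose and listed at 0 in both KO adipose libraries. The largest lower values were thus smaller than the largest higher ones.

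Treg identity genes were split between the directions. Of 20 tested members 9 were positive and 11 negative, with a median of -0.084, and 0 passed (limma, with 0 at an unadjusted p under 0.05). Foxp3 was at 126 and 93.5 TPM in WT adipose and 7.4 and 98.4 TPM in KO adipose, and at 169 and 266 TPM in WT spleen and 8.27 and 226 TPM in KO spleen. Its genotype differences of -1.92 and -2.22 rested on the KO libraries of experiment 2 in both tissues, and the interaction was 0.29 (SE 2.09). Nt5e, which encodes the ectoenzyme CD73 that makes adenosine, had the smallest p of the list, at 81.4 and 27.8 TPM in WT adipose and 17.2 and 12.8 TPM in KO adipose (-1.54, SE 0.77, limma adjusted p = 1). The SE of Foxp3 is wide enough that an interaction of several log2 units was not detectable.

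The adipose Treg signature behaved differently in the 2 experiments. Of 24 tested members 11 were positive, with a median of -0.052, and 0 passed (limma, with 1 at an unadjusted p under 0.05). The median was 0.72 in experiment 2 and -1.17 in experiment 3. Pparg, the nuclear receptor of adipose Tregs, was at 25.6 and 154 TPM in WT adipose, 107 and 112 TPM in KO adipose, 4.26 and 2.7 TPM in WT spleen and 0.545 and 8.77 TPM in KO spleen, with interactions of 3.79 and -1.86. Il1rl1, the IL-33 receptor, was at 23.4 and 295 TPM in WT adipose, 60.6 and 80.4 TPM in KO adipose, 6 and 8.37 TPM in WT spleen and 1.03 and 6.51 TPM in KO spleen, with 3.13 and -1.54. Klrg1, a marker of terminal effector cells, gave 3.36 and -1.43. In these 3 genes WT adipose 2 was several times lower than WT adipose 3, and KO spleen 2 was lower than the other spleen libraries. Cxcr6, a chemokine receptor of tissue T cells, was at 1658 and 3398 TPM in WT adipose and 1442 and 1063 TPM in KO adipose (-1.43, SE 0.74), with -0.061 in experiment 2 and -2.80 in experiment 3. Prdm1, the repressor Blimp-1, was at 22.6 and 15.2 TPM in WT adipose, 2.62 and 6.19 TPM in KO adipose, 5.19 and 10.3 TPM in WT spleen and 1.5 and 10.7 TPM in KO spleen (-1.31, SE 1.13), with -1.39 and -1.22 in the 2 experiments. Lrp1, a lipoprotein receptor, was the member with the smallest p (2.27, SE 0.74), and its highest level was 4.75 TPM, in KO adipose 3. It was at most 0.27 TPM outside KO adipose, so it too entered the test only through that group, and it is the 1 member with an unadjusted p under 0.05.

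Bhlhe40 had the smallest p among effector transcription factors. This factor binds E-boxes and is needed for cytokine output of T cells. It was at 321 and 294 TPM in WT adipose and 89.5 and 93 TPM in KO adipose, with both KO libraries far below both WT libraries. Spleen levels were 9.62 and 34.1 TPM in WT and 18.5 and 42.4 TPM in KO, where the groups overlapped. Its interaction was -2.33 (SE 0.83, limma adjusted p = 1), with -2.70 in experiment 2 and -1.96 in experiment 3. Of the 20 tested members 14 were negative (median -0.48), and limma called 0, with 1 at an unadjusted p under 0.05. Runx3 (-0.91, SE 0.68) and Irf4 (-1.11, SE 0.98) did not pass.

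Survival and death genes held 3 members with an unadjusted limma p under 0.05, against 3.06% of tested genes, and 0 that passed over all genes. Bcl2, which protects cells from death, was at 87.6 and 90 TPM in WT adipose and 35.6 and 29.5 TPM in KO adipose, and at 40.2 and 52.6 TPM in WT spleen and 33.1 and 39 TPM in KO spleen (-1.08, SE 0.46, limma adjusted p = 1). KO lay below WT without overlap in both tissues, with a difference of -1.43 in adipose tissue and -0.35 in spleen. Bik, a death-promoting relative, was at 68.1 and 65.7 TPM in WT adipose, 32 and 37.5 TPM in KO adipose, 1.59 and 3.92 TPM in WT spleen and 3.69 and 5.46 TPM in KO spleen (-1.55, SE 0.67). Fas, the death receptor, ran the other way, at 47.3 and 21.5 TPM in WT adipose, 74 and 67.8 TPM in KO adipose, 173 and 95.4 TPM in WT spleen and 109 and 91.1 TPM in KO spleen (1.48, SE 0.64). Each of the 3 kept its sign in both experiments. Of 14 survival genes 8 were negative (median -0.34) and of 15 tested death genes 11 (median -0.56).

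Glycolysis genes had small negative interactions throughout. All 16 tested members were negative (median -0.84), as were 60.4% of all tested genes. In both experiments 13 of them were negative, as were 4584 of the 13376 tested genes. Limma called 0 of the 16, with 0 at an unadjusted p under 0.05. The median genotype difference was -0.52 in adipose tissue and 0.14 in spleen. Pgk1, phosphoglycerate kinase, was at 328 and 241 TPM in WT adipose, 175 and 186 TPM in KO adipose, 145 and 199.7 TPM in WT spleen and 195 and 211 TPM in KO spleen (-0.89, SE 0.44). After quantile normalization the list median was -0.79. T cell core genes were negative in 12 of 12, with a median of -0.54. That median was 0.07 in experiment 2 and -0.93 in experiment 3, the experiment of the KO adipose library with the high macrophage total. Ribosomal protein genes were negative in 26 of 26 (median -0.39, or -0.38 after quantile normalization). A list of 15 housekeeping genes, which shares Gapdh and Pgk1 with the glycolysis list, had a median of -0.40.

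Immediate early genes summed to 12551 to 22979.6 TPM in WT adipose and 10586 to 10869 TPM in KO adipose, and to at most 2153 TPM in spleen. Of 27 tested members 19 were negative (median -0.29), and limma called 0, with 0 at an unadjusted p under 0.05. Fos was at 1475 and 3107 TPM in WT adipose, 1779 and 1525 TPM in KO adipose, 6.11 and 15.2 TPM in WT spleen and 6.48 and 2.21 TPM in KO spleen (0.75, SE 0.81). Tnfaip3, a brake on NF-kB signalling, had the smallest p of the list (-1.26, SE 0.70). Ier3, which answers early to stimulation, was at 27.1 and 25.2 TPM in WT adipose and 73.4 and 131 TPM in KO adipose (1.0, SE 0.67). Naive and homing genes were split, with 8 of 17 positive (median -0.14). In this list Klf2, which drives lymphoid homing, was at 134 and 33 TPM in WT adipose, 116 and 80.2 TPM in KO adipose, 93.2 and 75.2 TPM in WT spleen and 33.7 and 37.6 TPM in KO spleen (1.73, SE 0.83, limma adjusted p = 1). Tcf7, a factor of naive and memory T cells, had an interaction of -0.96 (SE 0.48).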

How the data were processed

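RNA of CD4+ CD25+ T cells (a minimum of 500 sorted cells per sample, per the labels) was made into cDNA with a SMARTer v4 low-input kit and into libraries with a Nextera XT kit, per the labels' protocols. The authors deposited 1 table of TPM for all 8 libraries, a unit read from the values, since each column sums to 1e+06. The genome build is mm9 per the submitters' processing notes. Aligner, counting tool and annotation were not given in the sources used here. TPM keeps no depth, so no count test, counting interval or detection limit was computed.

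Of 45232 rows, 21784 were at 0 in all libraries. The 13376 genes reaching 1 TPM in 2 or more libraries were fitted with limma 3.58.1 in R 4.3.3 on log2(TPM + 1), with 4 groups, a variance trend and 4 residual degrees of freedom. P-values were adjusted by Benjamini-Hochberg over all tested genes at a threshold of 0.05. The fit was tested on simulated data. Alternatives were the pseudocount, the filter, the trend, library weights, quantile normalization, the replicate block and leaving out libraries. Where that leaves a group with 1 library, its spread is assumed to be that of the other groups.

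Libraries with the same number deviated together: over the 6 pairs of groups, the correlation across genes of the difference between experiments 3 and 2 ran from 0.13 to 0.38, and the headers call the numbers experiments. The numbers were therefore taken to pair the libraries in the values within each experiment and in the replicate block. The main fit did not include this pairing, and SEs and adjusted p-values come from that fit unless another setting is named. With the pairing as a block, limma called 0 genes.

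The members and the 28 gene lists were chosen with earlier results of these data known. Named genes are those of the Id and E protein list, up to 15 per direction with the smallest p and up to 6 per direction that were largest in both experiments (both with a group mean of 5 TPM or more), and the 4 members of each list with the smallest p. Genes named outside this rule (Foxp3, Pparg, Il1rl1, Klrg1, Fos, Birc5, Msln, Upk3b, Col3a1, Col1a2, Hist1h2ap, Spc24, Ckb and macrophage genes listed at 0) were chosen after their values were seen. Not every gene that the rule names is reported here. Clones, predicted genes, pseudogenes, receptor segments and 27 names turned into dates were counted and not named. Promoter windows came from a RefSeq table of another build (GRCm38.p6) and were matched by symbol.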

Additional observations from a re-analysis of the deposited data

Results flagged for a closer look

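The 4 genes whose genotype difference differed between the tissues by a test of the difference itself, limma's interaction term, were Igfbp6 (8.61), Serping1 (7.58), Upk1b (6.78) and Nkain4 (6.80), in log2 units. In each of them both KO adipose libraries lay above all 6 other libraries, which were under 1 TPM. They thus entered the test only through the group where they were high, so the calls are a description; with no filter on low values no gene passed in limma (661 had an unadjusted p under 0.05). With the replicate block the limma adjusted p ran from 0.0506 to 0.0611, so that none of the 4 passed. Fibroblast and mesothelium totals were high in the same 2 libraries (1276 to 4164 TPM), and the part of such cells in these 4 values was not tested.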

How the results depend on the processing

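The number of genes called by limma depended on the processing. Against 4 genes (4 higher, 0 lower), limma called 0 with the replicate block, with a pseudocount of 0.1, with no filter on low values and with a filter at 5 TPM, where 661, 408, 661 and 246 genes had an unadjusted p under 0.05. It called 6 with a pseudocount of 5, 16 with no variance trend, and 10 with library quality weights as well as with quantile normalization, all of them higher. With each library left out in turn it called 0 to 79 genes (0 to 77 higher and 0 to 3 lower), the highest being 79 without KO adipose 2. Where it called 0, between 221 and 495 genes had an unadjusted p under 0.05. In alternatives chosen after seeing the data, it called 21 (19 higher, 2 lower) without both KO libraries of experiment 2. With the genes of the 8-library filter it called 177 (175 higher, 2 lower) without KO adipose 2 and 8 (7 higher, 1 lower) without KO adipose 3. Apart from the 4 calls, the block changed no call of a named gene.

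The median interaction of the cell cycle list was negative in every alternative run, from -2.96 to -1.16. That of the fibroblast and mesothelium list was 8.55 with a pseudocount of 0.1 and 3.22 with 5. That of the glycolysis list was -0.66 with a pseudocount of 5, -1.01 within experiment 3, and -1.10 to -0.46 with 1 library left out. That of the T cell core list was 0.011 without KO adipose 3, under either filter, and 0.070 within experiment 2, with a range of -1.13 to 0.011 with 1 library left out. Some named genes that did not pass changed sign, and the cause was not tested. Id2 was at -0.032 with quantile normalization, -0.93 without both KO libraries of experiment 2 and -1.12 within experiment 3. With 1 library left out it ran from -0.83 to 1.04, with -0.25 for WT adipose 2 and -0.062 for WT spleen 3. Foxp3 ran from -2.01 (without KO spleen 2) to 2.60 with 1 library left out, with -1.49 without KO adipose 3 (either filter), -0.029 without WT spleen 3 and -0.23 without both KO libraries of experiment 2. Id1 ran from -2.93 (without KO adipose 3, either filter) to 5.37, with -1.08 without WT adipose 2 and -0.28 within experiment 2. Without KO adipose 2 (either filter), Tcf3 was at 0.0058 and Tcf12 at 0.047, and within experiment 3 they were at 0.012 and 0.23, with Irf4 at 0.67. The lowest values with 1 library left out were -1.86 for Tcf3 and -1.22 for Tcf12. Without WT adipose 2, Il1rl1 was at -1.01, Klrg1 at -0.15 and Pparg at -0.31. Without KO spleen 2 they were at -0.15, -0.28 and -0.36, and within experiment 3 at -1.54, -1.43 and -1.86. Without both KO libraries of experiment 2, Klrg1 was at -0.24 and Pparg at -0.34. Their highest values with 1 library left out were 2.59 (Il1rl1), 2.21 (Klrg1) and 2.30 (Pparg). Since TPM keeps no depth, what sequencing depth limits could not be measured; the median SE of an interaction was 0.82 log2 units.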

Other observations

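Other lists held few or no genes that stood apart. Th1 and cytotoxic genes were negative in 12 of 15 tested members (median -1.11), with medians of -1.96 in experiment 2 and 0 in experiment 3. Their sum was 2904 and 307 TPM in WT adipose 2 and 3, and 2512 and 137 TPM in KO adipose 2 and 3. In adipose tissue both libraries of experiment 2 were thus above both of experiment 3. Interferon response genes were positive in 14 of 24 (median 0.25). In experiment 2 their median genotype difference was -1.0 in adipose tissue and -1.0 in spleen, and in experiment 3 it was 0.53 and 0.091, with 16 of 24 positive in each tissue. Among follicular helper genes Cd200, a surface ligand that restrains myeloid cells, was at 13.7 and 18.3 TPM in WT adipose and 55.5 and 178 TPM in KO adipose, and at 66.8 and 65.7 TPM in WT spleen and 108 and 70.7 TPM in KO spleen (2.18, SE 0.76, limma adjusted p = 1). Heat shock genes had a median of -0.035 and fatty acid oxidation genes one of -0.038 over 13 genes each. In none of these 5 lists did limma call a gene, with 1 at an unadjusted p under 0.05.

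Of the remaining lists for other cells, dendritic cell genes were positive in 8 of 10 tested members (median 1.77), adipocyte genes in 7 of 9 (2.08) and endothelial genes in 9 of 9 (1.52). Endothelial genes summed to 14362 TPM in KO adipose 3 but to 27.5 TPM in KO adipose 2, and to 2079 and 42.5 TPM in WT adipose 3 and 2. Fabp4 is a member of both the endothelial and the adipocyte list, so the sums of these lists are not separate. The endothelial members with the smallest p, Kdr, Cdh5, Tie1 and Tek, were at 83.5, 65.5, 16.3 and 47.4 TPM in KO adipose 3. They made up a small part of the 14362 TPM there, so that sum does not stand for the list as a whole. B cell genes were positive in 3 of 9 (-0.47), cytotoxic T and NK cell genes in 3 of 5 (0.99) and genes of type 2 innate lymphoid cells in 3 of 8 (-0.31). Of 9 neutrophil and mast cell genes 1 was tested. Limma called 0 genes in these 7 lists, with 0 at an unadjusted p under 0.05. Erythroid genes had a median of 6.41 over 5 members (3.47 without KO spleen 2), with 9.32 in experiment 2 and 2.69 in experiment 3.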
